A study of Mus musculus with 14 samples.

Results

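The type I interferon response genes are the genes that cells switch on when interferon alpha or beta binds its receptor. The 40 genes taken here were given as a list of symbols, and all 40 were found in both gene tables, of 27179 genes measured in keratinocytes and 24411 in epidermis. By role they are 4 sensors of foreign or misplaced nucleic acid, 3 signalling factors, 5 genes of the ISG15 modifier system, 3 IFIT genes, 5 genes of the OAS family, 11 other antiviral effectors, 3 genes of the PARP9, PARP14 and DTX3L group, and 6 genes of guanylate binding, antigen processing and chemokine function. Of these, 40 passed the filter on low counts in keratinocytes and 38 in epidermis, where Oasl1 and Ifi44 did not pass. The genes were listed with earlier results of these data known, among them that the keratinocyte libraries numbered 1 were high.

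The samples come from newborn mice of a pair of genotypes. All carry Trp63-Ex13fl/fl, in which exon 13 of Trp63, the gene of the epidermal transcription factor p63, is flanked by loxP sites. Mice with these alleles alone keep the alpha ending of p63 and are called p63alpha. Mice that also carry KRT14-Cre, a recombinase driven by a keratin promoter of basal keratinocytes, are called p63beta. RNA was read from primary keratinocytes grown in low calcium medium, with 3 libraries per genotype, and from epidermis parted from the dermis with trypsin, with 4 libraries per genotype. In the epidermis tables the columns read WT or KO, taken here as p63alpha and p63beta. The labels do not say which libraries came from separate animals or cultures, so the tests weigh differences against the spread of these libraries, and that spread may be technical.

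In this pathway, sensors such as the products of Ddx58 (RIG-I) and Ifih1 (MDA5) recognise viral RNA and lead to secretion of interferon. Interferon binds the receptor of Ifnar1 and Ifnar2, whose kinases activate STAT2, which joins IRF9 in a complex that binds the interferon-stimulated response element (ISRE) in target promoters. Many targets are themselves sensors or signalling factors of the pathway, so its genes tend to move together. Keratinocytes respond to interferon and, in skin, the pathway is known for antiviral defence and inflammation.

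The data show 2 things about these genes. In keratinocytes, most stood far higher in both libraries numbered 1 than in the libraries numbered 2 and 3, whatever the genotype. Within each number, 36 of 40 stood lower in the p63beta library than in the p63alpha library, against 52.1%, 48.0% and 50.5% of all genes. No gene of the list passed the test in the comparison of 3 against 3 libraries, where 0.101% of all genes did. With the number taken as a block 1, Bst2, passed it, where 0.268% of all genes did, but the labels state no such pairs. In epidermis none of the 38 tested genes passed the test, where 0.232% of all genes did.

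The promoter stretches of 8 genes are shown because they carry the letters that the complex of STAT2 and IRF9 is known to bind, in front of 6 genes that were lower in p63beta keratinocytes in each number, and of Ifit3 and Cxcl10, which were not. The sequences are from RefSeq with build GRCm38.p6 (mm10) and run 5′ to 3′ along each gene's own strand, upstream of the start of transcription. Capitals mark each match to the ISRE core GAAANNGAA or, on the other strand, TTCNNTTTC.
Isg15: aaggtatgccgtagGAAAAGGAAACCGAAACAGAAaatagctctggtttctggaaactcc
Bst2: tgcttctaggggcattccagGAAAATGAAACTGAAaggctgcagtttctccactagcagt
Ifit1: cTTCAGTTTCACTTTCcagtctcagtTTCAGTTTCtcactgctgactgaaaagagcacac
Ifit3: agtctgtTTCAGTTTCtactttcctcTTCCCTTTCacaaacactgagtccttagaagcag
Oas1a: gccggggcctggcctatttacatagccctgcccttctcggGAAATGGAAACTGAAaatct
Oas3: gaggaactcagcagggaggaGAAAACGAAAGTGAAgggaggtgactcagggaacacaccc
Rsad2: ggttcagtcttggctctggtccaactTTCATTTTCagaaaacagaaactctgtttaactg
Cxcl10: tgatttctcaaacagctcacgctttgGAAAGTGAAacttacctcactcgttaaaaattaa
The Isg15 stretch lies at chr4:156200851-156200910 (- strand), and its 3 matches overlap one another from -78 to -58, counted back from the start site. The Bst2 stretch lies at chr8:71537563-71537622 (- strand), with 2 overlapping matches from -130 to -116. The Ifit1 stretch, at chr19:34640779-34640838 (+ strand), has 3 matches, of which a pair overlap, and the Ifit3 stretch, at chr19:34583401-34583460 (+ strand), has 2 separate ones. The Oas1a stretch, at chr5:120907526-120907585 (- strand), and the Oas3 stretch, at chr5:120777695-120777754 (- strand), each have 2 overlapping matches. The Rsad2 stretch lies at chr12:26456538-26456597 (- strand) and the Cxcl10 stretch at chr5:92349069-92349128 (- strand), each with 1 match.

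Promoters of 30 of the 40 genes were in the RefSeq table, each from 250 bases before to 50 bases after the start. The missing ones are Dhx58, Ifi27, Mx1, Mx2, Oas2, Parp14, Parp9, Rtp4, Usp18 and Zbp1. The ISRE core, sought on both strands, was in 16 of 30 (53.3%), against 9.76% of the 27025 genes with a promoter in the table. These are Bst2, Cxcl10, Ddx58, Eif2ak2, Gbp2, Gbp3, Ifi44, Ifih1, Ifit1, Ifit3, Isg15, Oas1a, Oas3, Rsad2, Stat2 and Trim25. The core of the gamma-activated site, an element of the gamma interferon response, TTCNNNGAA, which reads the same on both strands, was in 6 of 30 (20%), against 9.55% of genes. Those are Bst2, Eif2ak2, Ifit2, Oas1a, Psmb8 and Samhd1. In Bst2 the latter match ran from -136 to -128 and so overlapped the ISRE core. A match to these letters is a description of the window and not a binding site, and no protein binding was measured here.

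The libraries set limits that hold for every result. Keratinocyte libraries held 20688027 to 30066041 counted read pairs and epidermis libraries 21290056 to 44909616 estimated counts. Whole-gene Trp63 counts, which cannot show the loss of 1 exon, stood at 193, 179 and 178 CPM (counts scaled to a common library size) in p63alpha keratinocytes and at 343, 358 and 390 CPM in p63beta. The keratinocyte markers Krt5 and Krt14 were high in all 6 keratinocyte libraries, as the label requires, and their lowest levels were in the libraries numbered 1. Krt1 and Krt10, keratins of the differentiated layers, were among the most abundant genes of epidermis and stood at 14.9 CPM or less in the cultures. The p63beta library 3 stood apart by 8 heart genes, which summed to 2988 CPM against 103 to 205 CPM in the other 5. Myeloid markers moved with the number, as given beside the results below. In such bulk libraries, fewer cells of a type and less RNA per cell cannot be told apart.

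**Figure D1:**
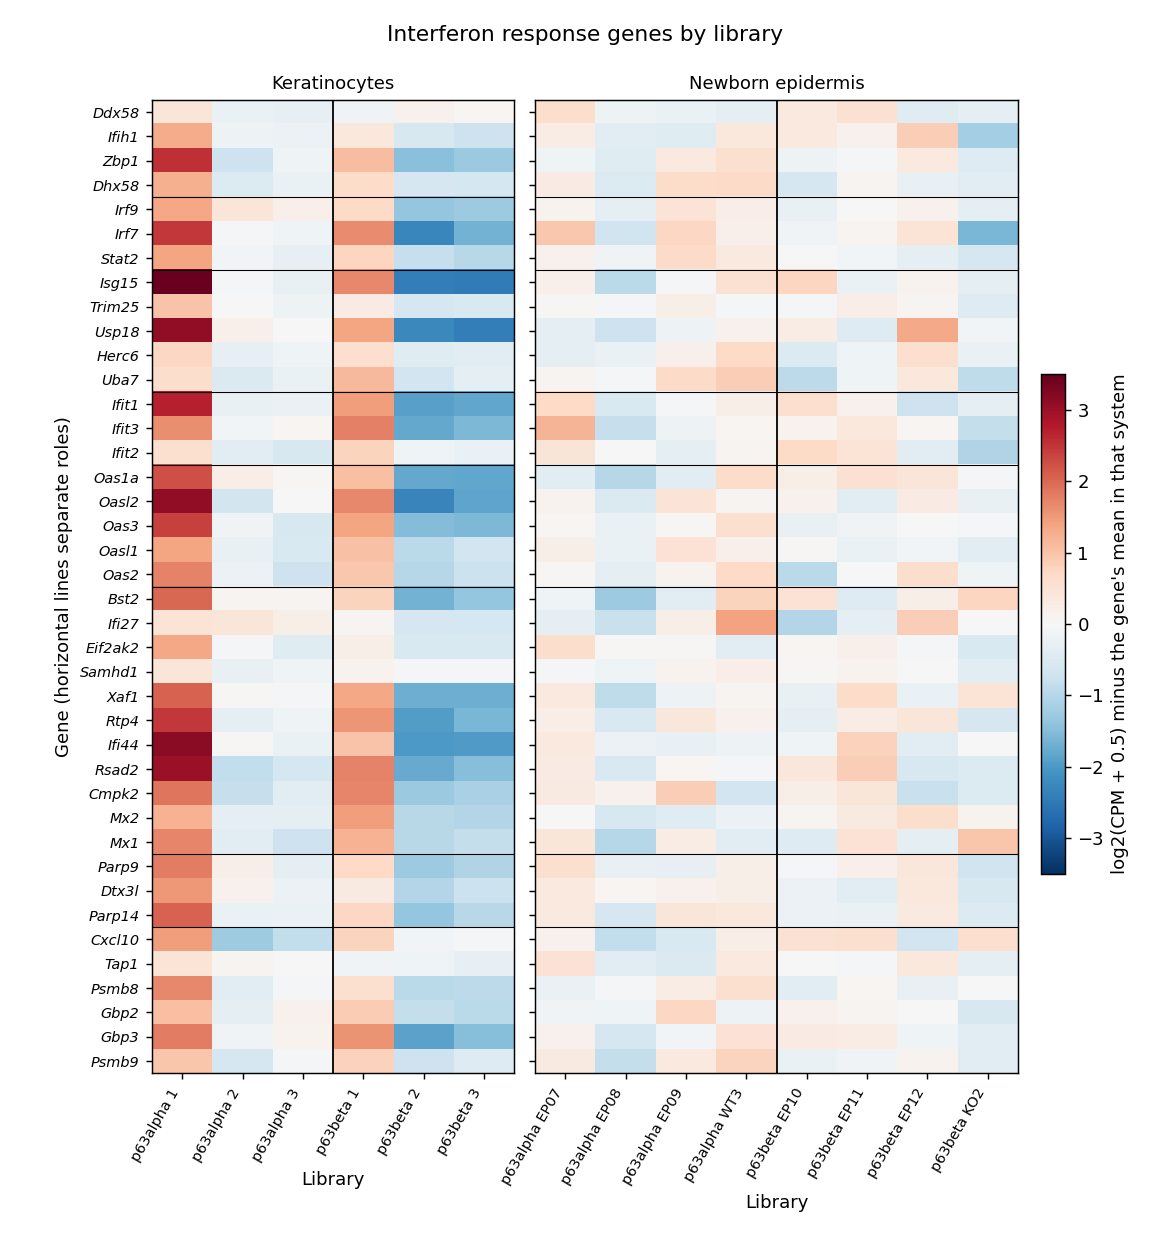
Each row is a gene and each column a library, with keratinocytes on the left and epidermis on the right. Colour gives log2(CPM + 0.5) minus the gene's mean over the libraries of that system, so 1 unit is a doubling of CPM + 0.5. The added 0.5 makes genes at low CPM paler. The columns of p63alpha 1 and p63beta 1 are red for most genes, and those of p63beta 2 and p63beta 3 are blue, while the epidermis columns are pale.

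Most of the spread in keratinocytes went with the library number. The sum over the 40 genes was 1622, 541 and 502 CPM in p63alpha libraries 1, 2 and 3. It was 851, 363 and 364 CPM in p63beta libraries 1, 2 and 3. Library p63alpha 1 was the highest of 6 for 36 genes and p63beta 1 for the other 4, which are Uba7, Ifit2, Ifit3 and Mx2. The libraries numbered 1 both stood above all other 4 for 37 of 40 genes, against 21.3% of all 13820 genes tested. The exceptions were Ddx58, Ifi27 and Tap1. The genes were listed with this pattern known, so the share describes the list and is no independent support. In p63alpha, a gene of the list stood at a median of 3.90 times the mean of libraries 2 and 3 in library 1, ranging from 1.12 times for Ifi27 to 17.7 times for Rsad2. In p63beta the median ratio was 4.78, from 0.851 for Ddx58 to 36.6 for Zbp1. Over all genes tested the median ratios were 0.997 and 0.992.

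The variance of each gene's log2 level over the 6 libraries was split into a share for the number, a share for the genotype and a rest. Over the 40 genes the medians were 76.5% for the number, 18.0% for the genotype and 1.77% for the rest. Over the 13780 other genes tested they were 52.9%, 12.8% and 19.2%. The number took more than 50% of the variance in 37 of 40 genes (92.5%), against 52.8% of the others. The same 3 exceptions, Ddx58, Ifi27 and Tap1, lay under it. These shares too are of genes listed with the number pattern known.

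**Figure D2:**
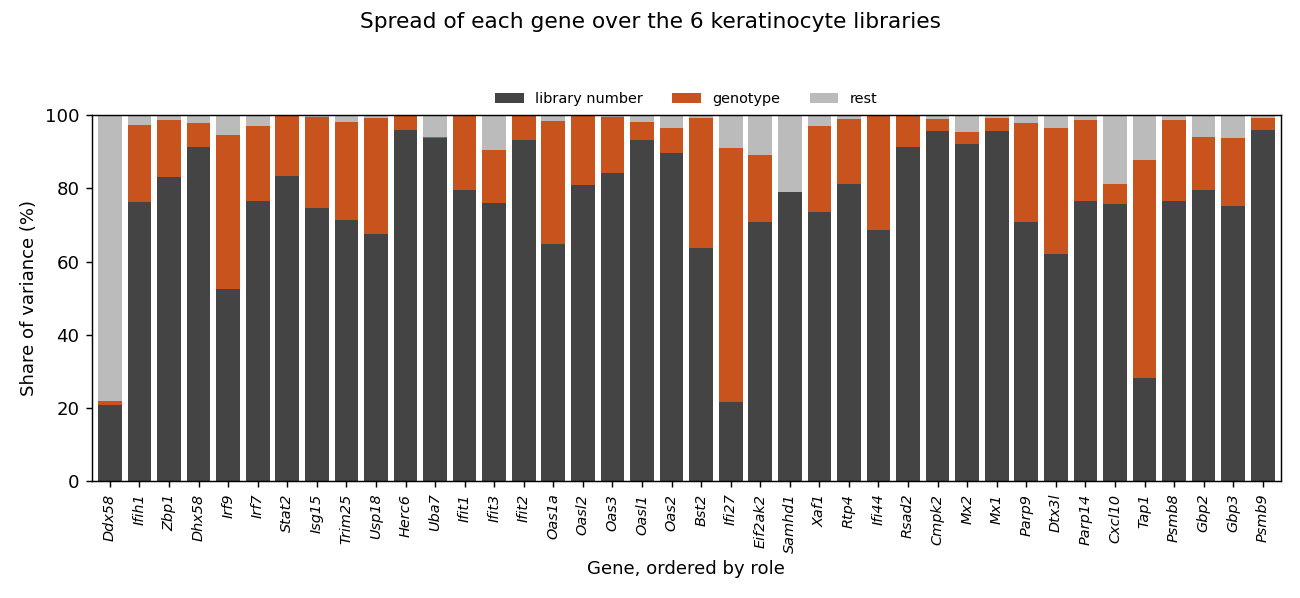
Bars give, for each gene, the share of its variance over the 6 keratinocyte libraries (in %) that goes with the library number (dark), the genotype (orange) and neither (light). Ifi27 and Tap1 are the genes with more orange than dark, and Ddx58 the one where the light part is largest.

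The comparison of 3 p63beta with 3 p63alpha keratinocyte libraries asks how RNA levels differ between the genotypes. Only p63beta mice carry KRT14-Cre, so the presence of Cre and the loss of the alpha ending cannot be told apart. In edgeR's quasi-likelihood test 0 of the 40 genes passed an adjusted p of 0.05, where 14 of 13820 genes (0.101%) passed. At an unadjusted p under 0.05 there were 2 of 40 genes, Ifi27 and Tap1, against 6.85% of all genes. DESeq2 gave an adjusted p for 28 of the 40 and called 0. The fitted log2 fold change, p63beta over p63alpha, was negative for 37 of 40 genes, against 50.3% of all genes. Its median was -0.74, against -0.00135 over all genes. The same Ifi27 and Tap1 were the 2 of 40 genes whose groups did not overlap, a property of 12.3% of all genes tested. The median of -0.74 depended on which libraries numbered 1 were kept. Without p63alpha library 1 alone it was 0.27 and 14 genes were negative. Without p63beta library 1 alone it was -2.24 with 39 negative. Each of these fits keeps a high library numbered 1 in the other genotype only. Without both of them, and with no block, the median was -0.96 with 35 of 39 negative.

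With the number as a block, which compares libraries of the same number, 37 genes of 13820 passed (0.268%), of which 5 were lower in p63beta (0.0362%). Bst2 was the 1 gene of the list among them. The labels state no such pairs, so this call rests on taking the number as pairing. The log2 fold change was negative for 36 of 40, with a median of -0.98. At an unadjusted p under 0.05, 26 of 40 genes were lower in p63beta, against 6.01% of all genes. The adjusted p was 0.0554 for Isg15, 0.0588 for Stat2, 0.0687 for Ifi44, 0.0694 for Rsad2, 0.0697 for both Usp18 and Parp14, and 0.0705 for Oasl2, which all missed the threshold.

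Pair by pair, the p63beta library was the lower one for 36 of 40 genes in each of the 3 numbers. Over all genes the shares were 52.1%, 48.0% and 50.5%. The median log2 ratios of the list were -0.71, -0.76 and -0.76 in numbers 1, 2 and 3, from CPM with 0.5 added. With the same 0.5 added, an at least 2-fold lower level was found for 14, 18 and 16 genes, against 0.818%, 1.39% and 2.6% of all genes. The added 0.5 shrinks ratios of genes at low CPM, so some with a 2-fold lower CPM were not counted. In all 3 numbers 33 of 40 genes were lower, against 19.4% of all genes, and 1 gene, Ifit2, was higher. The other 6 with mixed signs were Ddx58, Uba7, Ifit3, Mx2, Samhd1 and Cxcl10. The p63alpha libraries 2 and 3 both stood above p63beta libraries 2 and 3 for 34 of 40 genes, against 27.3% of all genes. The listed genes tend to move together and were listed with earlier results known. These shares, and those of the fits above, thus describe the list and are no independent support.

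**Figure D3:**
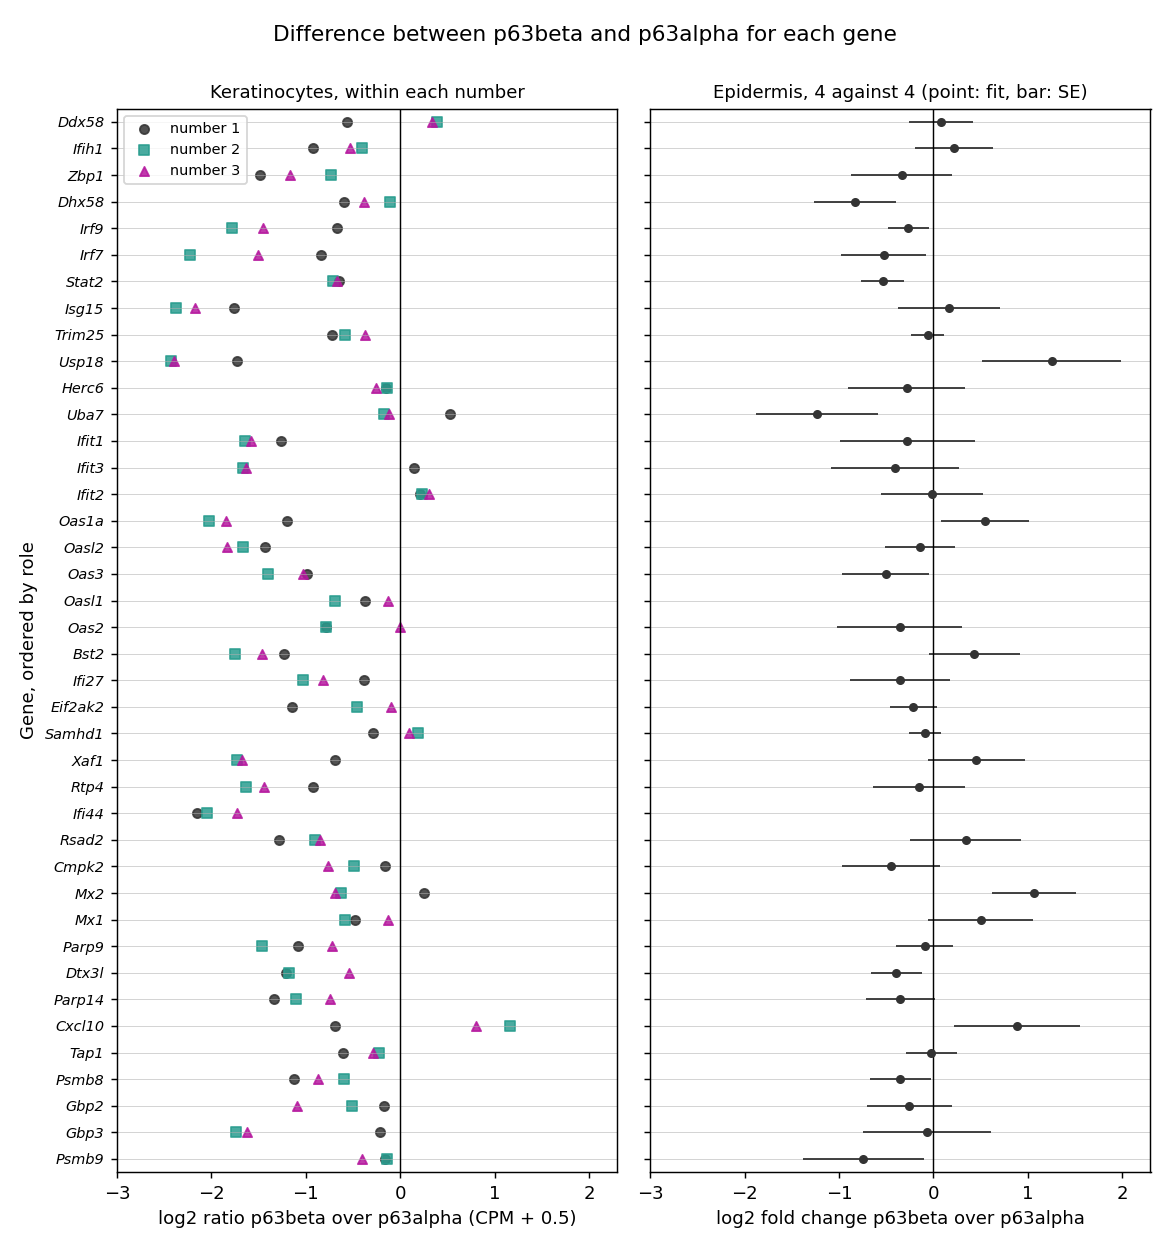
The left panel gives, for each gene, the log2 ratio of p63beta over p63alpha within each library number of keratinocytes, with 1 marker per number. The right panel gives the epidermis log2 fold change with its standard error (SE, derived from the F test) for the 38 genes tested. Most markers on the left lie below 0, while the epidermis points lie on both sides of it.

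Leaving out both libraries numbered 1 left 2 against 2 libraries. In that fit with the block, 585 of 13878 genes passed (4.22%), 178 of them lower (1.28%). Of the 39 genes of the list that passed the filter, 16 passed as lower in p63beta and 1, Cxcl10, as higher. Without the block 574 genes passed (4.14%), with 15 genes of the list lower and 2, Cxcl10 and Ddx58, higher. The median of the list was -0.96 with and without the block, with 35 of 39 negative. Leaving out both libraries numbered 2 or numbered 3 left 0 genes of the list called, and at most 1 gene in all. With the block, the medians of the list were then -0.83 and -0.88, with 37 of 40 negative in both, and 23 and 24 genes of the list had an unadjusted p under 0.05. The low p-values without number 1 thus rest on 2 libraries per genotype, of which p63beta 3 is the one with heart genes.

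Among the sensors, Ddx58 had the highest level per length (16.7 FPKM, fragments per length of gene and depth, as a mean over the 6 libraries). It stood at 110, 69.0 and 66.9 CPM in p63alpha libraries 1, 2 and 3 and at 74.4, 90.2 and 84.6 CPM in p63beta. The genotypes overlapped, and p63beta was the lower one in number 1 only. Its log2 fold change was 0.02 ± 0.21 (SE derived from the F test). Ifih1 was measured at 56.0, 19.9 and 19.5 CPM in p63alpha and at 29.2, 14.9 and 13.3 CPM in p63beta. It was lower in p63beta in each number, with a log2 fold change of -0.64 ± 0.13 with the block (adjusted p 0.16). Zbp1, a sensor of Z-form nucleic acid that can start necroptosis, was near the floor outside number 1, at 8.31, 0.398 and 0.855 CPM against 2.65, 0.0396 and 0.105 CPM. Dhx58, a regulator of the other RNA sensors, had a log2 fold change of -0.46 ± 0.26 with the block.

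The 3 signalling genes stood lower in p63beta in each number. Irf9, the DNA-binding part of the complex, was at 76.3, 39.5 and 33.2 CPM in p63alpha and 47.9, 11.1 and 11.8 CPM in p63beta. Its p63beta library 1 was above p63alpha libraries 2 and 3, so the groups overlapped, but in numbers 2 and 3 the ratios were -1.79 and -1.46 on the log2 scale. Irf7, a factor that amplifies interferon production, was at 44.6, 7.23 and 6.79 CPM against 24.7, 1.15 and 2.06 CPM. For Stat2 the levels were 64.6, 22.9 and 19.8 CPM against 41.0, 13.7 and 12.3 CPM. The 3 log2 ratios of Stat2 were nearly equal, at -0.65, -0.72 and -0.67, and the log2 fold change with the block was -0.69 ± 0.07.

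ISG15 is a small protein that is attached to other proteins, with UBA7 as its activating enzyme, HERC6 as a ligase and USP18 as the protease that removes it and damps the receptor. Isg15 stood at 114, 9.69 and 8.22 CPM in p63alpha and at 33.4, 1.47 and 1.43 CPM in p63beta. Its p63alpha library 1 was thus more than 10 times its neighbours, and within each number the p63beta level was the lower. The log2 fold change of Isg15 was -2.23 ± 0.21 with the block and -1.86 ± 1.58 without. Usp18 had 66.1, 8.16 and 7.13 CPM in p63alpha and 19.6, 1.11 and 0.945 CPM in p63beta, which made -2.39 ± 0.28 with the block. Trim25, a ligase that acts on RIG-I, had 168, 82.9 and 73.8 CPM against 101, 55.1 and 56.9 CPM. The differences of Trim25 were smaller, with log2 ratios of -0.73, -0.59 and -0.37. The 2 enzymes of the system had values nearer 0, Herc6 with -0.21 ± 0.20 and Uba7 with 0.08 ± 0.34 with the block.

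IFIT proteins bind foreign RNA and block its translation. Ifit1 was at 26.6, 2.92 and 2.99 CPM in p63alpha and at 10.8, 0.594 and 0.665 CPM in p63beta, lower in each number. Ifit3 was at 8.56, 2.22 and 2.57 CPM against 9.50, 0.356 and 0.490 CPM, so it was higher in p63beta in number 1 and lower in numbers 2 and 3. Ifit2 was the exception of the family, at 10.8, 5.31 and 4.70 CPM against 12.6, 6.34 and 5.95 CPM. With the block the log2 fold changes were -1.83 ± 0.25, -1.46 ± 0.66 and 0.27 ± 0.13 for Ifit1, Ifit3 and Ifit2. Ifit3 has a close copy, Ifit3b, with which its reads may be shared.

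OAS enzymes make the short adenylate chains that activate RNase L. Oas1a stood at 26.8, 6.20 and 5.32 CPM in p63alpha and at 11.3, 1.15 and 1.12 CPM in p63beta. Oasl2, a relative with ubiquitin-like domains, stood at 40.8, 2.59 and 4.28 CPM against 14.8, 0.475 and 0.840 CPM. Oas3 had 11.7, 1.66 and 1.09 CPM against 5.65, 0.317 and 0.280 CPM. All 5 genes of the family had a lower p63beta level in each number, and the log2 fold changes with the block ran from -1.97 ± 0.24 for Oasl2 to -0.73 ± 0.40 for Oasl1. Between them lay Oas1a with -1.91 ± 0.28, Oas3 with -1.69 ± 0.34 and Oas2 with -1.23 ± 0.61. Oas1a has close copies such as Oas1g, so its level is uncertain to that extent.

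Bst2 encodes tetherin, a membrane protein that holds budding virus particles at the cell surface, and had the highest level per length of the list (67.5 FPKM). The gene lies on the minus strand at chr8:71534259-71537437 of mm10. It stood at 147, 38.8 and 38.7 CPM in p63alpha and at 62.2, 11.2 and 13.7 CPM in p63beta. The p63beta level was the lower in each number, by log2 ratios of -1.24, -1.75 and -1.46, while p63beta 1 overlapped the p63alpha range. With the block in edgeR's quasi-likelihood test Bst2 was lower in p63beta by a log2 fold change of -1.50 ± 0.12 (adjusted p 0.0431), and without it the change was -1.36 ± 0.85 (adjusted p 0.856). Without both libraries numbered 1 it was called again, and without those numbered 2 or 3 no gene of the list was.

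Ifi27, a small membrane protein of mitochondria and the nuclear envelope, did not follow the number. It stood at 24.0, 23.2 and 19.8 CPM in p63alpha and at 18.2, 11.1 and 11.02 CPM in p63beta, with no overlap. The log2 fold change was -0.73 ± 0.23 (adjusted p 0.575). Eif2ak2, the RNA-dependent kinase PKR that stops translation, had 122, 44.9 and 35.2 CPM against 54.9, 32.6 and 32.9 CPM, and its p63beta library was lower by -1.14 on the log2 scale in number 1 but by only -0.09 in number 3. Ifi27 has related genes such as Ifi27l2a, so its counts may be shared with them.

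The other 8 effectors had negative log2 fold changes with the block. Ifi44 showed -2.80 ± 0.31, the lowest of the 40, followed by Rtp4 with -1.84 ± 0.41 and Xaf1, a factor that promotes cell death, with -1.49 ± 0.30. Rsad2, the antiviral enzyme viperin, had -1.34 ± 0.16. Mx1 and Mx2, dynamin-like GTPases that block viral replication, had -0.68 ± 0.33 and -0.68 ± 0.46. Cmpk2, a nucleotide kinase next to Rsad2 in the genome, had -0.64 ± 0.27. Samhd1, which breaks down the nucleotides needed for reverse transcription, was nearly level at -0.01 ± 0.12.

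PARP9 and DTX3L form a ligase complex, and PARP14 is an ADP-ribosyl transferase. Parp9 stood at 63.3, 20.7 and 14.2 CPM in p63alpha and at 29.7, 7.17 and 8.40 CPM in p63beta. Dtx3l, which overlaps the start of Parp9 on the other strand of chromosome 16, had 51.1, 19.2 and 15.1 CPM against 21.9, 8.24 and 10.2 CPM. Parp14 had 66.1, 13.1 and 13.2 CPM against 25.8, 5.82 and 7.66 CPM. All 3 were lower in p63beta in each number, and the log2 fold changes with the block lay close together, at -1.13 ± 0.16, -1.01 ± 0.16 and -1.11 ± 0.14. Keratinocyte read pairs were counted by strand, so Parp9 and Dtx3l were counted apart there.

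CXCL10 is a chemokine that draws T cells, and Cxcl10 did not share the order of most of the list. It stood at 43.5, 6.17 and 8.22 CPM in p63alpha and at 26.8, 14.4 and 14.7 CPM in p63beta. The p63beta library was thus the lower in number 1 and the higher in numbers 2 and 3, with log2 ratios of -0.69, 1.16 and 0.80. Tap1, the peptide transporter for class I presentation, had 45.3, 34.4 and 32.5 CPM against 29.5, 29.5 and 26.5 CPM with no overlap, and a log2 fold change of -0.39 ± 0.14 (adjusted p 0.666). Psmb8, an immunoproteasome subunit, had 21.9, 4.91 and 6.22 CPM against 9.75, 3.09 and 3.18 CPM. With the block the log2 fold changes were -0.94 ± 0.16 for Psmb8, -0.40 ± 0.32 for the subunit gene Psmb9, and -0.63 ± 0.22 and -1.51 ± 0.52 for Gbp2 and Gbp3, guanylate binding proteins of cell-autonomous defence. The guanylate binding genes are a family of similar sequence, which leaves their counts uncertain.

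**Figure D4:**
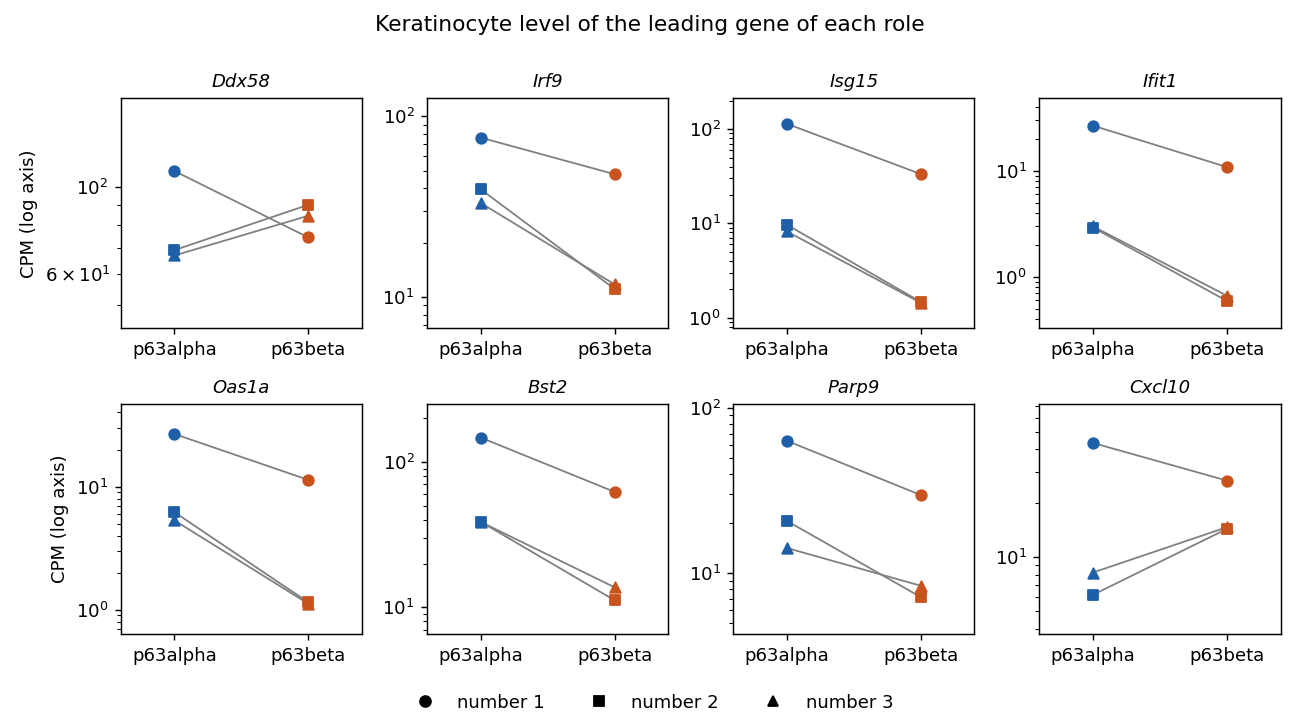
For the gene of each role with the highest mean FPKM, points give the CPM in keratinocytes on a log axis, with p63alpha on the left and p63beta on the right, and lines join libraries of the same number. In Isg15, Ifit1, Oas1a, Bst2, Irf9 and Parp9 all 3 lines slope down to the right, and in Ddx58 and Cxcl10 the lines of numbers 2 and 3 go up.

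The 16 genes with an ISRE core in the promoter had a median log2 fold change with the block of -1.40 (14 negative), and the 14 without one had -0.69 (12 negative). Both groups reached far, from -2.80 to 0.43 with the core and from -1.97 to 0.27 without. The core plus 1 more A was in 14 of 30 promoters (46.7%), against 3.99% of genes, and gave the same medians. Cxcl10 and Ddx58 hold the core and were not lower in p63beta in numbers 2 and 3. The Cxcl10 letters are printed above beside those of Isg15. The Ddx58 match lies after the start site, at bases 4 to 12, and is not printed.

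In the authors' deposited table for keratinocytes, 23 of the 40 genes have an adjusted p and 0 are under 0.05, where 1.5% of all genes with one are. The genes without one include Ifi44, Usp18, Zbp1 and Isg15, which had the lowest log2 fold changes of the list with the block. In the authors' deposited table for epidermis 0 of 40 are under 0.05, against 0.896% of all genes with an adjusted p.

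Upstream of these genes, almost no interferon was seen in keratinocytes. Of 21 interferon genes searched, 18 had no count in any of the 6 libraries and none passed the filter. Ifnb1, the beta interferon, had 3 read pairs in p63alpha 1 and 4 in p63beta 1 and none in the other 4. A count of 0 in the shallowest library still allows a level of up to 0.145 CPM, so low levels were not detectable at this depth. The receptor genes passed the test in 0 of 6 cases. Ifnar1 was at 81.3, 64.5 and 64.3 CPM in p63alpha and 71.7, 73.0 and 69.4 CPM in p63beta. Ifnar2 lay close together, at 26.2, 25.4 and 27.3 CPM against 25.1, 25.8 and 25.4 CPM. Not all receptor genes were as even. Ifngr2 was at 81.4, 46.4 and 52.8 CPM against 69.6, 75.6 and 76.7 CPM, with a higher p63beta level in numbers 2 and 3. Ifnlr1 was at 17.1, 12.2 and 10.8 CPM against 10.9, 13.2 and 10.6 CPM.

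Of 11 signal transducers 0 passed. Irf1, a factor of the gamma interferon arm, was at 22.2, 7.80 and 10.3 CPM against 15.8, 17.5 and 16.3 CPM, with a higher p63beta level in numbers 2 and 3 as in Cxcl10. The kinase genes Jak1, Jak2 and Tyk2 had log2 fold changes of -0.06 ± 0.10, 0.11 ± 0.30 and -0.02 ± 0.13. Of 15 tested inducers of interferon and of 8 inhibitors of the pathway, 0 passed. The kinase gene Ikbke, at 52.6, 40.6 and 48.2 CPM against 57.7, 85.1 and 73.2 CPM, had 0.61 ± 0.17 (adjusted p 0.507). In epidermis 0 of 16 tested inducers passed, and Mb21d1, the DNA sensor cGAS, had -1.30 ± 0.40 (adjusted p 0.624).

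In the fit without the block, further genes of class I presentation passed in 0 of 11 cases, where 0.101% of all genes did. All 11 had negative values, against 50.3% of all genes. Their median was -0.39, and -0.38 with the block. H2-T23, a nonclassical class I molecule, was at 90.4, 68.7 and 64.4 CPM in p63alpha and at 45.5, 46.3 and 46.6 CPM in p63beta, with -0.69 ± 0.14 (adjusted p 0.302). Nlrc5, the activator of class I genes, was at 9.80, 3.45 and 3.42 CPM against 4.73, 0.990 and 0.980 CPM. Of 23 tested relatives of the listed families 0 passed and 20 were negative, with a median of -0.77. With the block 19 were negative, with a median of -0.89. These lists were drawn up with earlier results known, and their values without p63alpha library 1 are not given here.

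By likeness, the 10 genes outside the list whose log2 level followed the mean of the list most closely over the 6 keratinocyte libraries included Ercc6l, Adm, Elf3, Psmd8, Gbp7, Hmgb1, Adar, Prr5 and Trim30a, with Pearson correlations from 0.990 to 0.997. Gbp7, Adar and Trim30a are on the lists of the pathway and its relatives. Their spans differ widely: Trim30a stood at 5.36 CPM in p63alpha 1 and 0.119 CPM in p63beta 2, and Psmd8 at 347 and 278 CPM. Over 6 libraries that share the number pattern, such a correlation is a description only. Within the list, the correlation with that mean was lowest for Ddx58, at 0.328, and Cxcl10, at 0.680.

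Markers of myeloid cells moved with the number too. The 9 markers summed to 131, 40.6 and 21.3 CPM in p63alpha libraries 1, 2 and 3 and to 106, 12.7 and 38.9 CPM in p63beta, and for 8 of 9 both libraries numbered 1 stood above the other 4. Adgre1, a macrophage marker, stood at 11.1, 1.23 and 0.713 CPM against 7.70, 0.119 and 0.840 CPM. The part of these cells in the number pattern was not tested. Between the genotypes the myeloid sum was lower in p63beta in numbers 1 and 2 and higher in number 3, where 36 of 40 listed genes were lower. That p63beta library is the one with heart genes. With the block 8 of 9 markers were negative, with a median of -0.30, and 0 passed, and 0 of 9 were lower in p63beta in all 3 numbers. Their part in the genotype difference was not tested either. The 7 Langerhans cell markers summed to 14.1, 3.91 and 3.66 CPM in p63alpha and to 10.9, 5.90 and 16.4 CPM in p63beta, with the defining Cd207 seen in p63beta 3 alone, at 0.035 CPM. The 6 markers of plasmacytoid dendritic cells summed to 1.09 to 4.56 CPM in 5 libraries and to 68.4 CPM in p63beta 3. Of that sum Cox6a2, which heart muscle also expresses, made 68.1 CPM, and the defining Siglech stood at 0.070 CPM there and at 0 elsewhere. The 8 T cell markers summed to 40.5, 32.9 and 27.9 CPM in p63alpha and to 27.4, 19.8 and 24.4 CPM in p63beta, lower in p63beta in each number. Nearly all of it was Thy1, which is not limited to T cells, with a log2 fold change of -0.58 ± 0.17 (adjusted p 0.534), while Cd3e and Cd3g stayed at or under 0.388 CPM. The part of these markers was not tested.

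**Figure D5:**
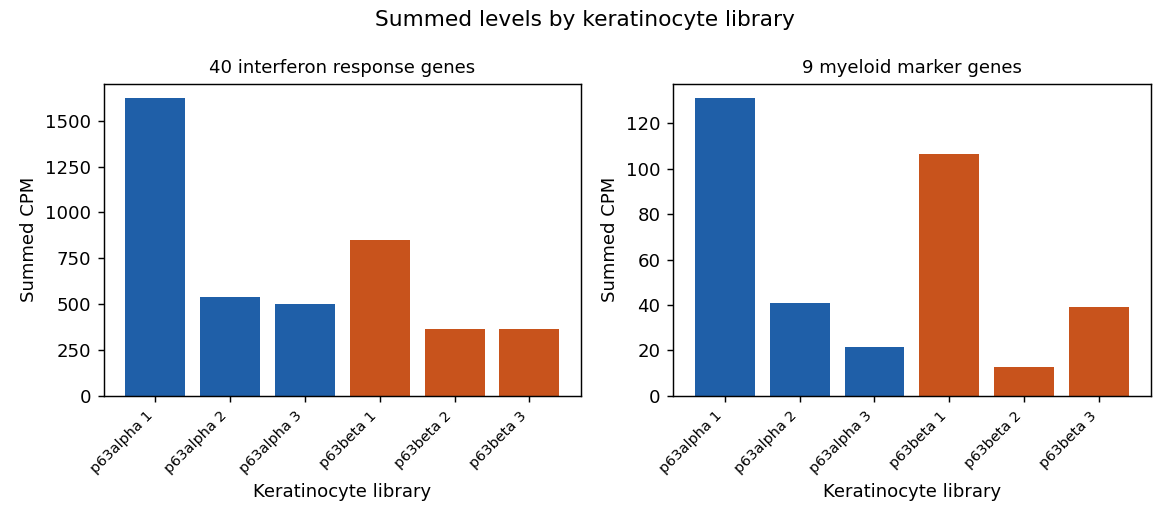
Bars give the summed CPM of the 40 listed genes (left) and of 9 myeloid markers (right) in each keratinocyte library, p63alpha in blue and p63beta in orange. Both sums are highest in the libraries numbered 1, and in number 3 the listed genes are lower in p63beta (364 against 502 CPM) while the myeloid sum is higher (38.9 against 21.3 CPM).

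In newborn epidermis the listed genes ranged widely in level. The median of the 38 tested genes stood at 0.788 to 1.99 CPM by library, while in p63alpha Trim25 stood at 41.7 ± 3.60 CPM (SD, n = 4), Samhd1 at 30.9 ± 3.68, Irf7 at 29.0 ± 12.7 and Irf9 at 19.8 ± 4.54. The p63alpha keratinocyte means of Irf7 and Samhd1 were 19.5 and 30.6 CPM, with Irf7 at 44.6, 7.23 and 6.79 CPM by library. The systems were counted with different tools and scaled apart, so these levels cannot be compared closely. The sum over the 40 genes was 251 ± 45.6 CPM (SD, n = 4) in p63alpha and 223 ± 43.6 CPM (SD, n = 4) in p63beta. In edgeR's test 0 of 38 genes passed, where 32 of 13796 genes (0.232%) did, and DESeq2 called 0 of 40. At an unadjusted p under 0.05 there were 2 of 38, Stat2 and Mx2, against 4.64% of all genes. The log2 fold change was negative for 27 of 38 genes, against 50.7% of all, with a median of -0.18 against -0.00393. In the 6 libraries named EP alone, 17 of 38 were negative. The adjusted p was 0.9999 for every one of the 38. By TPM (a level per transcript length and depth), the highest of the list in epidermis were Irf7 at 24.2, Ifi27 at 19.1 and Irf9 at 12.7.

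In epidermis, the p63alpha libraries EP07, EP08, EP09 and WT3 are followed below by the p63beta libraries EP10, EP11, EP12 and KO2. Stat2 stood at 15.6, 13.02, 22.6 and 17.9 CPM against 14.1, 13.2, 11.1 and 9.30 CPM, a log2 fold change of -0.54 ± 0.22. The groups of Stat2 overlapped through EP08. Mx2 stood at 0.588, 0.225, 0.295 and 0.434 CPM against 0.651, 0.826, 1.12 and 0.673 CPM. It was the 1 gene of 38 whose groups did not overlap, against 3.06% of all genes, and it was higher in p63beta, by 1.07 ± 0.44 (SE), at about 1 CPM or less.

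The other signalling genes had Irf9 at 19.3, 13.95, 24.8 and 21.2 CPM against 14.6, 17.5, 19.8 and 13.98 CPM. Irf7 was at 41.8, 13.1, 36.1 and 24.7 CPM against 19.98, 23.1, 30.6 and 6.75 CPM. Both overlapped, and Irf7 was lowest in EP08 and KO2 of its groups, the libraries that were lowest for 13 of 38 genes each. WT3 was the highest for 13 of 38. The summed myeloid markers were 141, 89.8, 155 and 175 CPM against 73.3, 109, 157 and 83.1 CPM. They were lowest in EP08 within p63alpha, but in EP10 and not KO2 within p63beta. Their part in the values was not tested.

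Isg15, Usp18 and Bst2, which had log2 fold changes of -2.23, -2.39 and -1.50 with the block in keratinocytes, stood at 6.68 CPM or less in every epidermis library. Isg15 stood at 1.35, 0.354, 1.05 and 1.87 CPM against 2.24, 0.890, 1.30 and 0.798 CPM, with 0.16 ± 0.54. Usp18 was at 0.294, 0.0964, 0.380 and 0.601 CPM against 0.692, 0.222, 1.99 and 0.424 CPM. EP12 was the highest of these libraries for Usp18, whose log2 fold change was 1.25 ± 0.74. Bst2 had 3.26, 1.22, 2.74 and 6.68 CPM against 5.41, 2.57, 4.28 and 6.53 CPM, with 0.43 ± 0.49, and the groups overlapped.

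Oas1a stood at 1.32, 0.675, 1.31 and 3.17 CPM against 2.197, 2.92, 2.64 and 1.72 CPM, with 0.55 ± 0.46. Ifit1 stood at 1.06, 0.161, 0.422 and 0.601 CPM against 0.936, 0.572, 0.0865 and 0.274 CPM. Parp9 was at 14.7, 8.13, 7.97 and 11.4 CPM against 9.32, 11.2, 13.2 and 5.91 CPM. In all of these the groups overlapped widely. Ddx58 was at 9.90, 5.46, 5.23 and 4.88 CPM against 8.10, 9.40, 4.54 and 4.96 CPM, and Cxcl10 was at 0.764, 0.129, 0.295 and 0.835 CPM against 1.14, 1.18, 0.216 and 1.22 CPM. Ddx58 and Cxcl10 gave 0.08 ± 0.34 and 0.89 ± 0.66.

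The remaining genes named for keratinocytes gave these epidermis values. Log2 fold changes were 0.22 ± 0.41 for Ifih1, -0.34 ± 0.54 for Zbp1, -0.06 ± 0.17 for Trim25, -0.40 ± 0.68 for Ifit3 and -0.02 ± 0.54 for Ifit2. They were -0.14 ± 0.37 for Oasl2, -0.51 ± 0.46 for Oas3, -0.35 ± 0.53 for Ifi27 and -0.21 ± 0.25 for Eif2ak2. Dtx3l, Parp14, Tap1 and Psmb8 gave -0.39 ± 0.27, -0.35 ± 0.37, -0.02 ± 0.27 and -0.35 ± 0.32. The lowest of the list was Uba7 with -1.23 ± 0.65. The further class I genes, all negative in keratinocytes, were positive for 8 of 11 in epidermis, and 0 of 11 passed.

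Whether the genotype difference itself was unlike in epidermis and keratinocytes was tested with an interaction term over all 14 libraries. Of 14545 genes 0 passed (0%), and of the 40 listed genes 0 passed and 0 had an unadjusted p under 0.05, against 4.2% of all genes. The difference, epidermis minus keratinocytes, was positive for 31 of 40 genes with a median of 0.71, and without p63alpha keratinocyte library 1 the median was -0.35. With the number as a block for keratinocytes, 0 passed, 33 were positive, and 14 of 40 had an unadjusted p under 0.05, against 4.1% of all genes. By gene, the difference without the block was 2.02 ± 1.59 for Isg15, 2.04 ± 1.15 for Oas1a, 1.81 ± 0.98 for Bst2, 1.15 ± 1.57 for Ifit1 and 1.04 ± 0.78 for Parp9. It was 0.82 ± 0.64 for Irf9, 0.95 ± 1.03 for Cxcl10 and 0.07 ± 0.42 for Ddx58. None of these differences passed the test.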

How the data were processed

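For keratinocytes the authors deposited whole-number counts of read pairs per RefSeq gene on mm10, made per the file headers with featureCounts 1.5.2, strand setting 2 and a minimum overlap of 25 bases, and FPKM values of the same libraries. For epidermis the authors deposited expected counts per gene and TPM, with Salmon named in the submitters' processing notes. Expected counts were rounded to whole numbers. The authors also deposited result tables with log2 fold changes and adjusted p-values, named DESeq2, whose 14 per-library columns were not used.

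Each system was fitted alone in edgeR 4.0.16 under R 4.3.3 (TMM, filterByExpr by group, robust quasi-likelihood F test), with Benjamini-Hochberg adjustment over all genes tested and a threshold of 0.05. The SE of a log2 fold change is its absolute value divided by the square root of F, and so is approximate. The interaction was fitted over all 14 libraries on the 23090 genes in both tables. FPKM and TPM served only to compare genes with each other. Alternatives were DESeq2 1.42.0, limma 3.58.1 on log2 FPKM or TPM, RLE size factors, no filter, no robust estimation, the replicate block, the EP libraries alone and leaving out libraries. Scripts were tested on simulated data.

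The labels number the keratinocyte libraries 1 to 3 in each genotype and state no pairs. Deviations from the group means over 12629 genes correlated at 0.587, 0.511 and 0.193 between libraries of equal number, and between other libraries at -0.527 to 0.178. The value of 0.587 includes the listed genes and was 0.572 without them. Between libraries numbered 2 and 3 the values were 0.177 and 0.178, so 0.193 does not single out the pair of number 3. Taking the number as pairing the libraries is thus an assumption, and these correlations come from the same counts as the fit with the block.

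The 40 genes, the lists and the tests were chosen with earlier results of these data known, among them that libraries numbered 1 were high. Values in every keratinocyte library are given for the 3 genes of each role with the highest mean FPKM and for the gene called with the block, and other listed genes by fold change, range or count. In epidermis, values in every library are given for the leading gene of each role and for Stat2, Mx2, Irf7 and Usp18, picked after their values were seen. From the pathway lists, receptors, transducers and up to 3 genes with the lowest p could be named. The transcript tables were not used here. 1 gene of the pathway lists is not reported here.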

Additional observations from a re-analysis of the deposited data

Results flagged for a closer look

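In the epidermis, where each genotype has 4 libraries, each listed gene that passed the filter was checked for a library whose gap to its nearest neighbour took nearly the whole range of its group. Of 76 such groups 4 met that criterion, and chance alone meets it in about 1 in 20 groups.

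Ddx58 stood at 9.9 CPM in p63alpha library EP07, against 4.88 to 5.46 CPM in the other 3. Parp14 stood at 1.54 CPM in p63alpha library EP08, against 3.35 to 3.63 CPM. Gbp2 stood at 1.94 CPM in p63alpha library EP09, against 0.802 to 0.852 CPM. Cxcl10 stood at 0.216 CPM in p63beta library EP12, against 1.14 to 1.22 CPM.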

How the results depend on the processing

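DESeq2 called 215 genes in keratinocytes and 155 in epidermis, and 0 listed genes in either. The number taken as a replicate block called 37 genes and 1 listed gene, and turned Cxcl10 to 0.43. With the block and without both libraries numbered 1, 585 genes and 17 listed genes passed, and Uba7 (-0.24), Samhd1 (0.14) and Cxcl10 (1.03) changed sign. With the block and without number 2, 0 genes passed, with Ddx58 at -0.12 and Cxcl10 at 0.041, and without number 3, 1 gene passed, with Ddx58 at -0.093 and Cxcl10 at 0.19. Without the block, a choice added after seeing the data, leaving out number 1 gave 574 genes and 17 listed genes (Uba7 -0.22, Samhd1 0.14, Cxcl10 1.02), number 2 gave 1 gene (Ddx58 -0.16, Mx2 0.074) and number 3 gave 0 (Ddx58 -0.12, Mx2 0.11). With limma on log2(FPKM + 1) and on log2(FPKM + 0.1) 9 genes each passed, with Cxcl10 at 0.39 and 0.44. With limma on log2(TPM + 1) and log2(TPM + 0.1) 20 genes each passed in epidermis, with Ddx58 at -0.0079 and -0.020, and with Ifih1 at -0.0078 for the latter. In the libraries named EP alone, 8 genes passed, 17 listed genes were negative, and 12 listed genes changed sign, among them Zbp1 (0.21), Trim25 (0.028), Ifit2 (0.31), Ifi27 (0.32), Parp9 (0.13) and Tap1 (0.19). The cause was not tested.

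Leaving out 1 library at a time, 1 to 4 genes passed in keratinocytes and 0 listed ones. The median of the list ran from -2.24 to 0.27 and its negative count from 14 to 39, with the last value of the median and the first of the count without p63alpha library 1. The ranges that crossed 0 were those of Ddx58 (-0.10 to 0.27), Dhx58 (-1.29 to 0.36), Zbp1 (-5.35 to 0.56), Irf7 (-3.60 to 0.38), Stat2 (-1.46 to 0.040), Isg15 (-4.92 to 0.40), Uba7 (-0.81 to 0.86), Herc6 (-0.69 to 0.23), Ifit1 (-4.10 to 0.42), Ifit2 (-0.18 to 0.70), Ifit3 (-3.38 to 0.50), Oas2 (-3.65 to 0.94), Oas3 (-4.00 to 0.56), Oasl1 (-2.29 to 0.77), Oasl2 (-4.57 to 0.62), Mx1 (-2.55 to 1.13), Mx2 (-2.39 to 0.96), Rsad2 (-4.05 to 1.36), Cmpk2 (-2.55 to 1.25), Samhd1 (-0.17 to 0.19), Xaf1 (-3.06 to 0.069), Rtp4 (-4.19 to 0.53), Gbp2 (-1.40 to 0.017), Gbp3 (-3.26 to 0.27), Psmb9 (-1.44 to 0.54) and Cxcl10 (-0.47 to 1.35).

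In epidermis 10 to 28 genes passed, fewest without EP07, and ranges crossed 0 for Ifih1 (-0.11 to 0.50), Ddx58 (-0.12 to 0.38), Isg15 (-0.22 to 0.49), Trim25 (-0.16 to 0.054), Ifit1 (-0.82 to 0.24), Ifit2 (-0.40 to 0.30), Ifit3 (-0.73 to 0.42), Oasl2 (-0.33 to 0.058), Eif2ak2 (-0.35 to 0.0060), Ifi27 (-0.81 to 0.30), Parp9 (-0.27 to 0.11) and Tap1 (-0.17 to 0.18). The same held for Herc6, Oas2, Rsad2, Samhd1, Rtp4, Gbp2 and Gbp3. For the interaction the median ran from -0.35, without p63alpha keratinocyte library 1, to 1.93, the negative count from 2 to 28, and among the genes given with a test of this difference the ranges of Ddx58 (-0.19 to 0.37), Isg15 (-0.26 to 5.07), Ifit1 (-0.71 to 3.82) and Cxcl10 (-0.48 to 1.37) crossed 0. RLE size factors and no filter reversed none of these values, nor did no robust estimation, run for keratinocytes and epidermis. For epidermis, no paired analysis was possible because the columns carry no numbers of the labels. Differences of genes near or under 1 CPM are limited by these depths.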
